A study of Mus musculus and Ictidomys tridecemlineatus with 36 samples.

Results

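The *Otx2* locus was examined in peak lists from CUT&RUN of P2 mouse retina. In CUT&RUN, an antibody directs a nuclease to a histone mark or a DNA-binding protein in intact nuclei, and the DNA cut loose there is sequenced. The locus was taken as the *Otx2* gene at chr14:48657677-48673819 of GRCm38, on the minus strand, plus 200 kb on each side, and a peak belonged to it when at least 1 bp of it fell in that window. These rules gave 100 of the 246656 peaks in the 5 mouse lists, and 532904 peaks were listed for the whole series of 2 species. The window of 416143 bp held 6 H3K4me3, 17 H3K27ac, 45 H3K4me1, 25 Otx2, and 7 Neurod1 peaks.

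The retinas were from mice at P2, with no treatment or allele named in the labels, and their strain is not given in the sources used here. Each of the 2 biological replicates pooled retinas from 3 individuals, and each reaction used 385000 nuclei. The mouse libraries number 20, with 2 each for H3K4me3, H3K27ac, H3K4me1, and the IgG control, 4 for Neurod1, and 8 for Otx2, of which 4 used an R&D Systems antibody and 4 an Atlas Antibodies one. The authors called peaks for each target jointly over its libraries, so each peak has 1 pooled fold enrichment over IgG and 1 −log10 q-value, the spread between replicates is unknown, the depth is unknown, and no difference below was tested. The retina was assayed in bulk, so fewer cells carrying a mark and less of the mark per cell cannot be told apart. The 13LGS lists were not analysed here for this locus.

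Otx2 is a homeodomain transcription factor that progenitors begin to express as they leave the cell cycle in the developing retina, and it is required for photoreceptor and bipolar cell fates. It activates *Crx* and *Prdm1*, which act in photoreceptor precursors, and *Otx2* itself is controlled through distal enhancers spread around the gene. Binding of Otx2 near its own gene is described below. Whether any of these sites acts on *Otx2*, and so whether Otx2 regulates its own gene, was not tested. Neurod1 is a bHLH factor of photoreceptor precursors that recognises E-boxes. H3K4me3 marks active promoters, H3K27ac marks active promoters and enhancers, and H3K4me1 marks enhancers whether active or poised.

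The DNA under the strongest Otx2 peaks is shown here because the results turn on these sites. Each stretch is 300 bases of the GRCm38.p6 plus strand, centred midway between the summit and the TAATCC site nearest to it, and capitals mark TAATCC, the sequence preferred by Otx2, and CAGATG, an E-box preferred by Neurod1, on either strand, so that GGATTA and CATCTG are the same sites read on the other strand. The 4 peaks of at least 10-fold come first, from the farthest upstream to the farthest downstream of *Otx2*, and then the pair of peaks between 5-fold and 10-fold. Both limits were chosen after the values had been seen.

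Otx2 peak 73.7 kb upstream, 18.9-fold (chr14:48741216-48741515): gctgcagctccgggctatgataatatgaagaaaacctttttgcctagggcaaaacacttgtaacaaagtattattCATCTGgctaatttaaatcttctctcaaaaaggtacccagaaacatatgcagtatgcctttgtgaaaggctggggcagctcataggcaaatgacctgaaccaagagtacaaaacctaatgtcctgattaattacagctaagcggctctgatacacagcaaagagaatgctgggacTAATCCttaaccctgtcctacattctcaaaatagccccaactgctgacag
Otx2 peak 58.6 kb downstream, 17.6-fold (chr14:48608887-48609186): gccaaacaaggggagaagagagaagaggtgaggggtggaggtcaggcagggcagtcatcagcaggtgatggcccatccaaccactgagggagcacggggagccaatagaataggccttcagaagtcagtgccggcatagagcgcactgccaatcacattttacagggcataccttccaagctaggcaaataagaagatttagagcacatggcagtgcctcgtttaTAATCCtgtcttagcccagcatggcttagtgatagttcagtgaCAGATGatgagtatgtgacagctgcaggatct
Otx2 peak 73.8 kb downstream, 14.7-fold (chr14:48593439-48593738): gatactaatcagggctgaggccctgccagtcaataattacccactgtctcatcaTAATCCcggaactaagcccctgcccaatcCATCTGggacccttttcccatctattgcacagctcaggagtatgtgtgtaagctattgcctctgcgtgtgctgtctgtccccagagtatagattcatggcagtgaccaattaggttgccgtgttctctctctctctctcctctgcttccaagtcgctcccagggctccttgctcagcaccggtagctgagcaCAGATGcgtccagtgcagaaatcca
Otx2 peak 87.1 kb downstream, 11.6-fold (chr14:48580304-48580603): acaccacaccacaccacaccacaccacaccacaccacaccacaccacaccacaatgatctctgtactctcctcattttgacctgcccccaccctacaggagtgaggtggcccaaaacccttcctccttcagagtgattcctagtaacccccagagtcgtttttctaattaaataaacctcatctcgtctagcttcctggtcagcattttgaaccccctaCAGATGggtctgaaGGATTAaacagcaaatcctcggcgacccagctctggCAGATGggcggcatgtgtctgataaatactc
Otx2 peak 50.6 kb downstream, 5.69-fold (chr14:48616675-48616974): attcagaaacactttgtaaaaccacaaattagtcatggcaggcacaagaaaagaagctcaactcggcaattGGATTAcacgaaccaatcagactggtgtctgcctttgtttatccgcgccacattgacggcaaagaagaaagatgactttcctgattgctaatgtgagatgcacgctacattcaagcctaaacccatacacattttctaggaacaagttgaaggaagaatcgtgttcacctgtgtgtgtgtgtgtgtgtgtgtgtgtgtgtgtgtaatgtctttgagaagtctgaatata
Otx2 peak 70.9 kb upstream, 5.58-fold (chr14:48738189-48738488): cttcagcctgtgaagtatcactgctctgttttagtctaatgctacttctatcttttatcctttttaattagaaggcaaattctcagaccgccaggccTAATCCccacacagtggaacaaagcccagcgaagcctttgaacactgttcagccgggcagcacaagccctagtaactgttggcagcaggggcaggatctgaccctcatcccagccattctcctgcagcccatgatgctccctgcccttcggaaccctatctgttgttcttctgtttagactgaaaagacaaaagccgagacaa

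Distances are from the annotated start of transcript Otx2-209, at position 48667515 of chromosome 14, to the peak summit. Each stretch holds TAATCC by the way it was centred, and those of the 4 peaks of at least 10-fold also held 1 or 2 copies of CAGATG. The 5.69-fold and 5.58-fold stretches held no CAGATG. These counts depend on the centring. In the 300 bp centred on the summit, the 18.9-fold and 14.7-fold peaks held 1 copy each, and the 17.6-fold and 11.6-fold peaks held 0. The weaker Otx2 peaks of 4.26 and 3.87-fold also held 1 copy each there. The share of all Otx2 peaks with CAGATG was not taken.

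**Figure D1:**
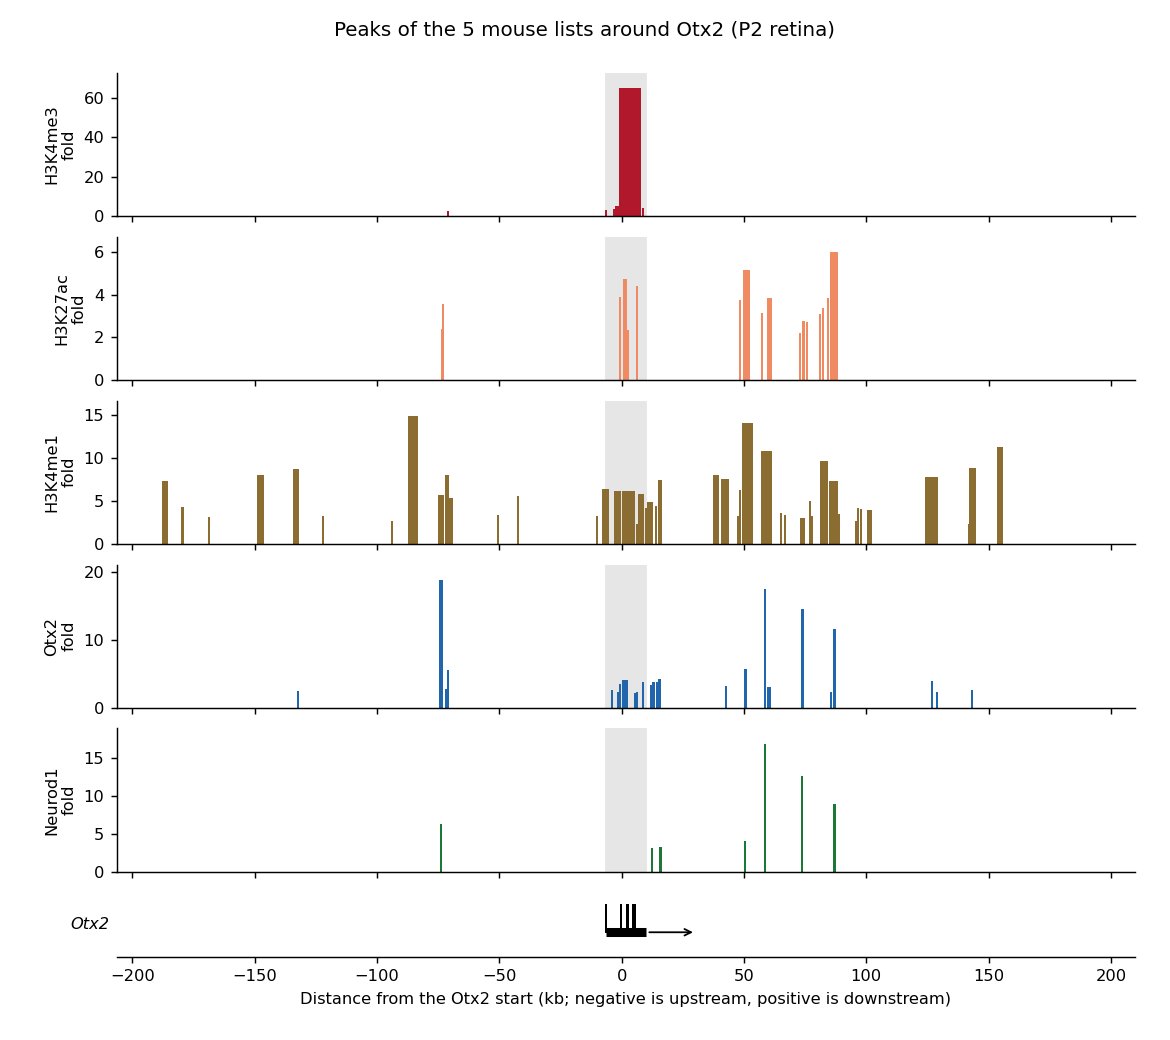
Peaks of the 5 mouse lists over the gene (grey) plus 200 kb each side, with distance from the *Otx2* start in kb on the x axis and fold enrichment over IgG on the y axis, 1 scale per list, each bar being 1 peak, with narrow peaks widened to be visible. H3K4me3 reached 64.9-fold over the gene, whereas the Otx2 bars above 10-fold stood 58.6 to 87.1 kb downstream and 73.7 kb upstream of the start.

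To ask how the *Otx2* promoters were marked, peaks were placed on the 11 annotated transcript starts, which form 6 groups when starts within 200 bp are joined. The most highly enriched H3K4me3 peak, at chr14:48659704-48668499, was 64.9-fold over IgG with a −log10 q of 512, and covered 5 of the 6 start groups. It ranked 156 by fold among 14069 H3K4me3 peaks, in the top 1.11%, and at 8796 bp it was the 17th widest. The other 5 H3K4me3 peaks of the window were 2.62 to 5.28-fold, below the median of 13.5-fold for the whole list.

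These weaker H3K4me3 peaks lay mostly beside the broad one. A peak of 5.28-fold with its summit 1.7 kb upstream began at a start of *Otx2os1*, a lincRNA transcribed from the opposite strand, and a peak of 3.71-fold lay 2.8 kb upstream. A peak of 3.85-fold lay 8.5 kb downstream, over the last coding exon of *Otx2*. The most upstream start, that of transcript Otx2-210 at position 48673819, carried an H3K4me3 peak of 3.10-fold. *Gm49154*, a short transcript on the *Otx2* strand that the annotation lists as awaiting experimental evidence, shared this peak. It was the 1 H3K4me3 peak within 1 kb of the *Gm49154* start. No other gene with a start in the window had H3K4me3 within 1 kb: of 19 such genes, 3 (*Otx2*, *Otx2os1*, and *Gm49154*) did. Beyond the window, the next H3K4me3 peaks were 221 kb downstream at *Tmem260* (31.4-fold) and 399 kb upstream at *Exoc5* (20.2-fold).

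H3K27ac over the gene came as 4 peaks, of which only the weakest was below the median of 3.36-fold for the whole list. The peak at chr14:48665421-48667041 was 4.75-fold and ranked 7993 of 62930, a peak of 4.40-fold lay 6.3 kb downstream of the start, a peak of 3.88-fold lay 0.6 kb upstream, and the fourth was 2.34-fold. All 4 lay inside the broad H3K4me3 peak. H3K4me1 lay within 1 kb of every start group, with highest folds of 6.19 to 6.43.

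Otx2 occupied its own promoter region at low enrichment. A 2389 bp Otx2 peak at chr14:48664813-48667201 was 4.15-fold with a −log10 q of 12.3, ranked 10071 of 29115 (top 34.6%), and covered the starts of transcripts Otx2-203 and Otx2-201. A peak of 3.55-fold lay 0.6 kb upstream of the main cluster of starts, and one of 3.75-fold lay 8.6 kb downstream in the last coding exon. The other Otx2 peaks within the gene were 2.22 to 2.64-fold. Of the 7 Otx2 peaks with a summit in the gene, 3 were above the median of 3.54-fold for all Otx2 peaks.

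At the main cluster of 6 starts, between positions 48667508 and 48667644, some lists left a gap. H3K4me3 ran through it, whereas no Otx2 peak was called over 497 bp, no H3K4me1 peak over 414 bp, and no H3K27ac peak over 984 bp around the Otx2-209 start. Otx2 peaks stood on both sides of the gap. The 250 bases before the most upstream of these starts, on the minus strand of GRCm38.p6 (chr14:48667645-48667894), run from this gap into the 3.55-fold Otx2 peak and hold neither motif. The only TAATCC inside the 2389 bp Otx2 peak lies in a noncoding exon of Otx2-209 and is shown in 30 bases of the minus strand (chr14:48665303-48665332), with capitals marking its reverse complement, 335 bp from the peak summit.

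Upstream of the main starts: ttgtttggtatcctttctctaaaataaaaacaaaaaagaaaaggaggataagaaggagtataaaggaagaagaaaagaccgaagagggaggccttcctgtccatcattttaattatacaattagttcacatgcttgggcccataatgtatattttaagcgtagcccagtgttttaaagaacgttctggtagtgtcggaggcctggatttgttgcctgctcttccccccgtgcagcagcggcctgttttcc
Site in the promoter peak: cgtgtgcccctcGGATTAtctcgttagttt

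Of the 4 *Otx2* promoters in RefSeq, each 250 bases before to 50 after a start, 1 held TAATCC, against 7.06% of all 32851 RefSeq promoters of the same length. A match is a description of the sequence and not of a bound site.

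Neurod1 had no peak within the gene. The nearest began 12034 bp from the main cluster of starts, and no Neurod1 peak was called within 2 kb of any of the 6 start groups. Within 1 kb of an annotated start, 5.76% of 21938 protein-coding genes had a Neurod1 peak, 51.0% an Otx2 peak, and 56.0% an H3K4me3 peak, and of the genes with H3K4me3 there 86.4% also had Otx2. All 154 H3K4me3 peaks of at least 5000 bp in the mouse list, a limit set after the values had been seen, overlapped an Otx2 peak (100%), beside 78.6% of all H3K4me3 peaks. A wider peak meets an Otx2 peak more readily. Most promoters with H3K4me3 in these lists thus had an Otx2 peak, as *Otx2* itself did.

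**Figure D2:**
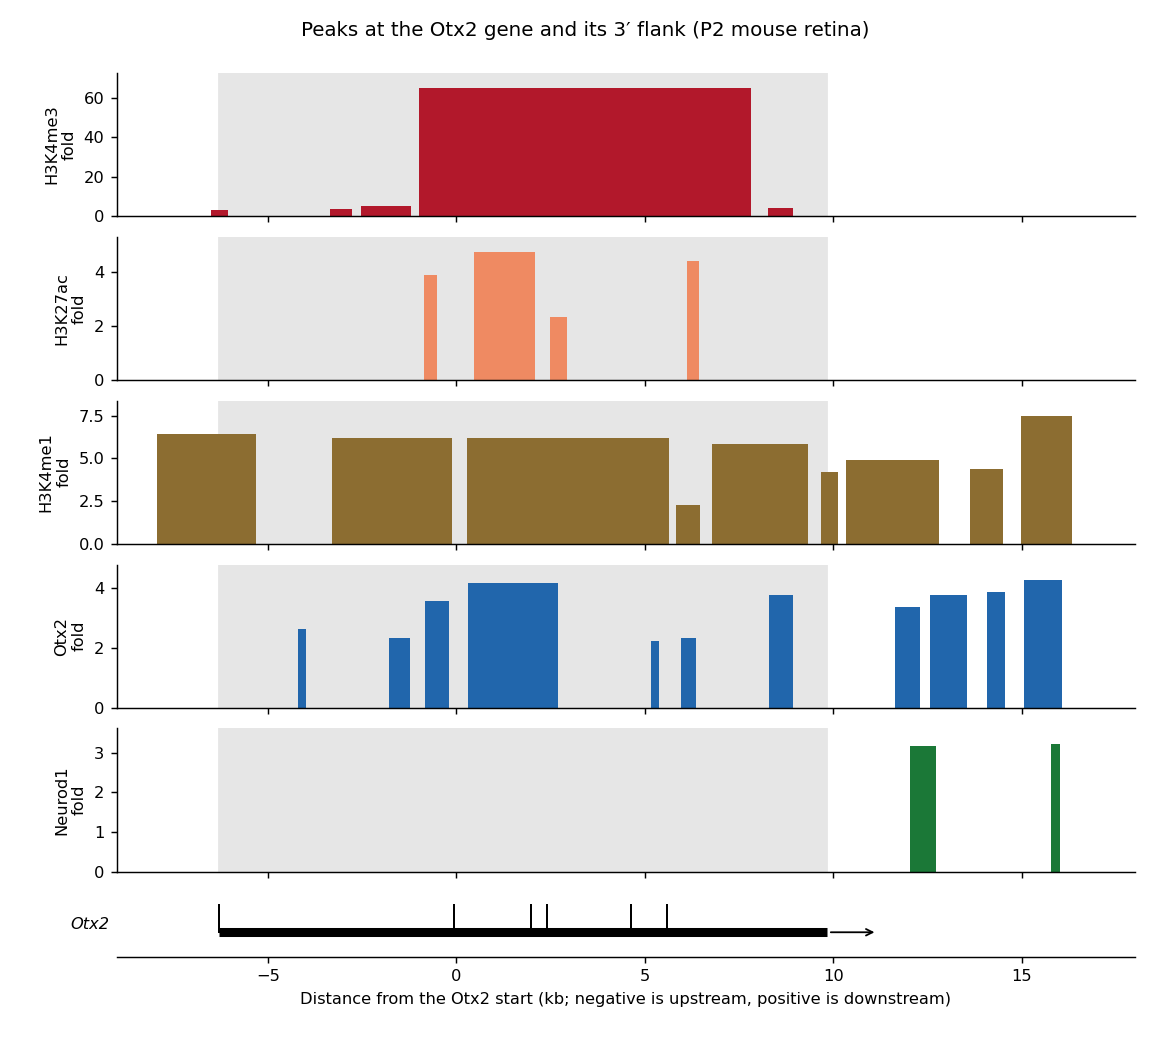
The same lists over the gene (grey) and its 3′ flank, with distance from the *Otx2* start in kb on the x axis and fold enrichment over IgG on the y axis, each bar spanning the called peak, and vertical ticks marking the 6 groups of annotated starts. The Otx2 peaks in the gene did not pass 4.15-fold, and the Neurod1 peaks of this stretch lay in the 3′ flank, at 3.18 and 3.23-fold.

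In contrast, 4 distal Otx2 peaks were among the most enriched of the whole list. The peak 73.7 kb upstream, at chr14:48740708-48742370 in an intron of *Otx2os1*, was 18.9-fold with a −log10 q of 216 and ranked 65 of 29115 (top 0.223%). The peak 58.6 kb downstream, at chr14:48608386-48609507, was 17.6-fold with a −log10 q of 252 and ranked 81 (top 0.278%). The peak 73.8 kb downstream, at chr14:48593150-48594008 in an intron of the lincRNA *Gm49120*, was 14.7-fold and ranked 176 (top 0.604%). The peak 87.1 kb downstream, at chr14:48579999-48581081 in intergenic sequence, was 11.6-fold and ranked 452 (top 1.55%). Its nearest protein-coding start was one of *Tmem260*, 74382 bp away, and not one of *Otx2*. Only 754 Otx2 peaks of the genome, 2.59%, reached 10-fold, and these 4 lie within 160.9 kb of each other.

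The next Otx2 peaks by fold were much weaker. The peak 50.6 kb downstream, at chr14:48616345-48617604, was 5.69-fold and ranked 4431. The peak 70.9 kb upstream, at chr14:48738281-48738746, was 5.58-fold and ranked 4701. A cluster of 4 Otx2 peaks of 3.36 to 4.26-fold lay 11.9 to 15.9 kb downstream, just past the 3′ end of the gene. The other 8 distal peaks were 2.26 to 3.93-fold, and the farthest lay 143.0 kb downstream and 132.1 kb upstream. Those 85.5 kb or more downstream also lay nearer to a start of *Tmem260* than to one of *Otx2*. Over all 25 Otx2 peaks of the window the median was 3.55-fold, beside 3.54-fold for the whole list.

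**Figure D3:**
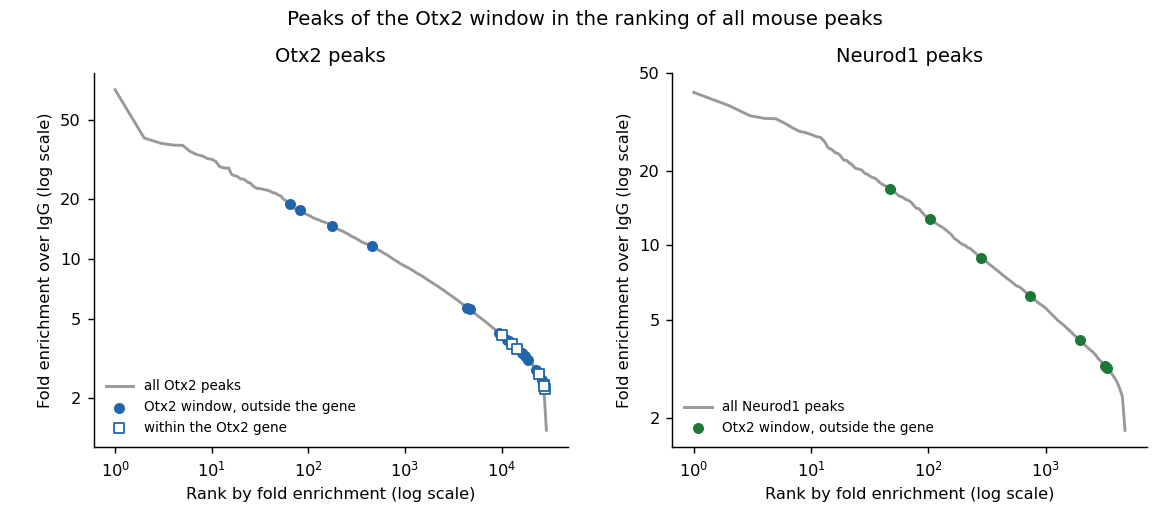
Fold enrichment over IgG (y axis, log scale) against rank by fold (x axis, log scale) for all Otx2 peaks and all Neurod1 peaks (grey lines), with the peaks of the *Otx2* window as filled circles and those within the gene as open squares. For Otx2, 4 circles stood between ranks 65 and 452, apart from the others, which began at rank 4431, and for Neurod1 the 7 circles ran from rank 47 to rank 3341.

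The Neurod1 peaks fell on the same distal sites. The Neurod1 peak 58.5 kb downstream was 16.9-fold with a −log10 q of 210 and ranked 47 of 4744 (top 0.991%). The one 73.8 kb downstream was 12.7-fold and ranked 104, and the one 86.8 kb downstream was 8.89-fold and ranked 281. The upstream site, 73.8 kb away, was 6.25-fold for Neurod1 and ranked 736. The order of the sites thus differed between the factors: the upstream site had the highest Otx2 fold of the window and only the fourth highest Neurod1 fold. Fold values of different antibodies are on different scales, and the difference in order was not tested.

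The other 3 Neurod1 peaks were weaker, at 4.11-fold 50.6 kb downstream, 3.23-fold 15.9 kb downstream, and 3.18-fold 12.6 kb downstream. All 7 Neurod1 peaks overlapped an Otx2 peak, a share of 100% with a 95% Wilson interval of 64.6 to 100%, beside 82.1% of all 4744 Neurod1 peaks, and the interval includes the latter. Conversely, 8 of the 25 Otx2 peaks (32.0%, 17.2 to 51.6%) overlapped a Neurod1 peak, beside 13.1% of all Otx2 peaks. All 4 Otx2 peaks of at least 10-fold did so (51.0 to 100%), beside 56.8% of the 754 such peaks in the genome. That interval includes the genome share. Of the 21 weaker Otx2 peaks of the window, 4 did, and the share over all weaker Otx2 peaks was not taken. A higher share at strong peaks was not particular to this window. In the genome it was 56.8% at 10-fold or more, beside 13.1% of all Otx2 peaks. These intervals cover counting error alone, and neighbouring peaks share their libraries and often an element.

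Where both factors had a peak, the summits were close at most sites but not at all of them. They were 3, 4, 4, 10, and 11 bp apart at the sites 15.9, 50.6, and 73.8 kb downstream, 73.7 kb upstream, and 58.6 kb downstream, in that order. At the site 87.1 kb downstream the summits were 317 bp apart. The Neurod1 peak 12.6 kb downstream bridged a pair of Otx2 peaks whose summits lay 624 and 676 bp away. The median over the 8 pairs was 10.5 bp, beside 66.0 bp over all 3917 overlapping pairs in the mouse lists.

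To describe the chromatin at the factor peaks, each was classed by a scheme adapted from that of the study, with H3K4me3 as promoter, H3K27ac without H3K4me3 as active enhancer, and H3K4me1 without either as poised enhancer. The study applied its scheme to elements defined by chromatin accessibility and also set a minimum on the mean signal of a mark, whereas here any overlap of whole peaks counted. Of the 25 Otx2 peaks, 7 fell in the promoter class (28.0%, 14.3 to 47.6%), beside 43.3% of all Otx2 peaks. The active enhancer class held 6 (24%, 11.5 to 43.4%), beside 22.6%. The poised enhancer class held 11 (44.0%, 26.7 to 62.9%), beside 26.9%, and 1 peak, of 2.64-fold and 4.1 kb upstream, met no histone peak (4.0%, 0.71 to 19.5%), beside 7.2%. Each of these 4 intervals includes the share over all Otx2 peaks, that of the poised class only at its lower bound. When every list was limited to −log10 q values of 5 or more, 16 Otx2 peaks were left. Of these, 2 were in the promoter, 3 in the active enhancer, and 11 in the poised enhancer class, and 0 were outside histone peaks. The shares over all Otx2 peaks at that limit were not taken.

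The promoter class included a distal site. The Otx2 peak of 5.58-fold 70.9 kb upstream was classed as promoter because an H3K4me3 peak of 238 bp and 2.62-fold covered it. That H3K4me3 peak had a −log10 q of 1.32, just past the threshold of the list, ranked 13912 of 14069, and coincided with H3K4me1 of 7.97-fold. The other 6 Otx2 peaks of this class were within the gene.

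Of the 7 Neurod1 peaks, 4 were in the active enhancer class (57.1%, 25 to 84.2%), beside 40.1% of all Neurod1 peaks, and 3 in the poised enhancer class (42.9%, 15.8 to 75.0%), beside 28.7%. None was in the promoter class, which allows a share of up to 35.4%, beside 25.6% of all Neurod1 peaks, and none lay outside the histone peaks, beside 5.54%. The order of the active and poised classes turned with the settings: they held 2 and 5 peaks when every list was limited to −log10 q values of 5 or more, and 3 and 4 with a fold of at least 2.5 or with the summit required inside the histone peak.

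The strong sites differed in their histone marks. The site 87.1 kb downstream had the highest H3K27ac of the window, a 3160 bp peak of 6.02-fold that ranked 3198 of 62930, with H3K4me1 of 7.37-fold. The site 73.8 kb downstream had H3K27ac of 2.76-fold and H3K4me1 of 3.03-fold, both below the medians of their lists (3.36 and 4.25-fold). The upstream site had a 232 bp H3K27ac peak of 2.41-fold under the Otx2 peak, a stronger one of 3.57-fold just beside it, and H3K4me1 of 5.71-fold. Otx2 fold and H3K27ac fold were therefore not in the same order over these sites: the largest Otx2 peak overlapped the third lowest H3K27ac peak of the window. That H3K27ac peak had a −log10 q of only 1.89. It ended at position 48741073, and the Otx2 summit, at position 48741264, lay outside it.

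At the site 58.6 kb downstream, H3K27ac stood beside the factors and not under them. H3K27ac peaks of 3.87 and 3.17-fold flanked it and left 1493 bp free of H3K27ac calls, in which the Otx2 peak of 17.6-fold and its Neurod1 partner lay, 100 and 162 bp from the nearer of them. H3K4me1 of 10.9-fold ran across the whole site. By overlap this site is a poised enhancer, and when a histone peak within 500 bp of the factor peak was counted it became an active enhancer for both factors. Of the 754 Otx2 peaks of at least 10-fold in the genome, 38.1% had no overlapping H3K27ac peak, beside 1 of these 4 (25%, 4.56 to 69.9%). The overlaps at the sites 73.7 kb upstream and 73.8 kb downstream rest on H3K27ac calls with −log10 q values of 1.89 and 4.18. A limit of 5 would remove both calls.

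The site 50.6 kb downstream showed the reverse balance. It had the second highest H3K27ac fold of the window, 5.19-fold over 2642 bp, and the second highest H3K4me1, 14.1-fold over 4591 bp and ranked 7127 of 135798 (top 5.25%), whereas Otx2 was 5.69-fold and Neurod1 4.11-fold. The 4 Otx2 peaks 11.9 to 15.9 kb downstream lay on H3K4me1 of 4.35 to 7.48-fold, and their nearest H3K27ac peak was 5211 to 8614 bp away.

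Merging overlapping peaks of any list gave 44 elements in the window. H3K4me1 alone accounted for 25, and 5 combined H3K27ac, H3K4me1, Otx2, and Neurod1. These 5 were the sites 73.9 kb upstream and 51.5, 59.2, 73.8, and 86.7 kb downstream, measured to their midpoints. Another 5 held H3K4me1 with Otx2, 2 held H3K4me1 with both factors, and 1, spanning 12680 bp, held the promoter region with H3K4me3, H3K27ac, H3K4me1, and Otx2.

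Of the 45 H3K4me1 peaks, 7 overlapped both factors, 10 overlapped Otx2 without Neurod1, and 28 neither. Their median H3K4me1 folds were 7.37, 6.87, and 4.08, and their median widths 2561, 2608.5, and 606.5 bp. The widths of these groups overlapped, and a wider peak meets a factor peak more readily. The highest H3K4me1 of the window, 14.9-fold over 3824 bp and 86.2 kb upstream, nevertheless met no factor peak and no H3K27ac. The same held for the peak of 11.3-fold, 154.3 kb downstream over a UTR exon of *Tmem260*. H3K4me1 of 9.59-fold, 82.8 kb downstream, met 3 H3K27ac peaks of 3.11 to 3.86-fold but no factor.

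The H3K27ac and H3K4me1 peaks of the window, those in the gene included, overlapped a factor peak at a higher share than in the genome. This difference was not tested. Otx2 overlapped 9 of 17 H3K27ac peaks (52.9%, 31 to 73.8%), beside 16.6% of all 62930, and 17 of 45 H3K4me1 peaks (37.8%, 25.1 to 52.4%), beside 16% of all 135798. Neurod1 overlapped 4 of 17 H3K27ac peaks (23.5%, 9.56 to 47.3%), beside 3.9%, and 7 of 45 H3K4me1 peaks (15.6%, 7.75 to 28.8%), beside 2.82%. The 4 H3K27ac peaks in the gene all overlapped Otx2, as did 4 of the 5 H3K4me1 peaks with a summit there. The H3K4me1 peaks of the window were also wider than those of the list, with medians of 1449 and 805 bp. A wider peak meets a factor peak more readily. At H3K4me3 the window did not stand above the background, with Otx2 on 4 of 6 peaks (66.7%, 30 to 90.3%), beside 78.6%, and Neurod1 on 0 of 6, which allows up to 39.0%, beside 8.2%.

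**Figure D4:**
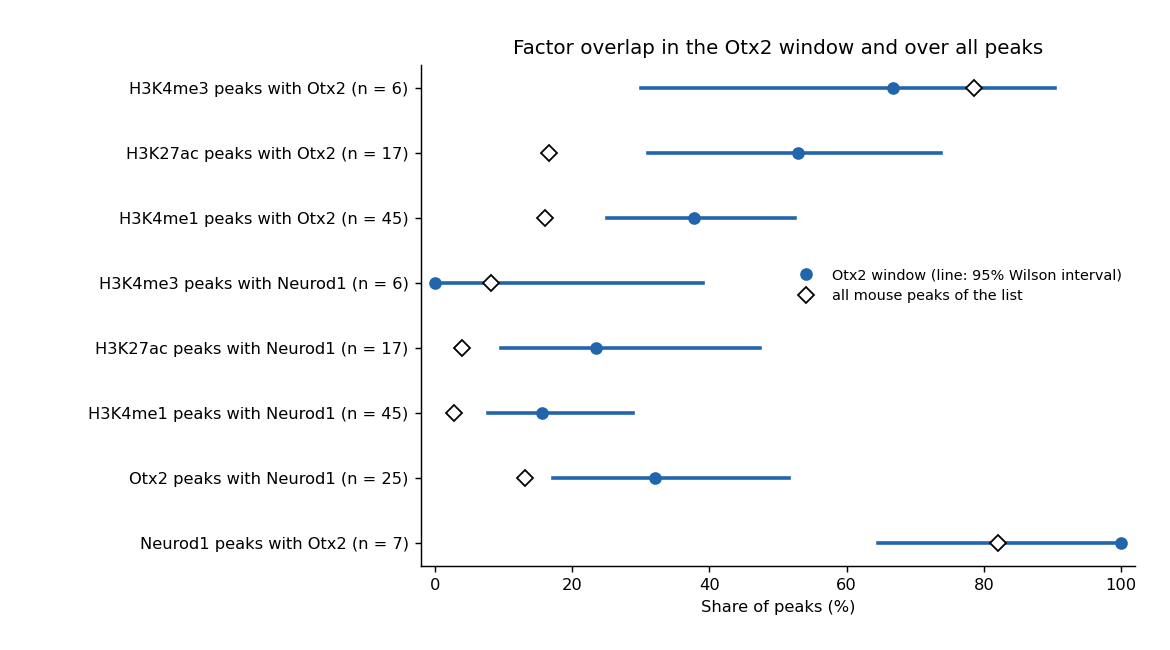
Share of peaks of each list that overlap a factor peak (x axis, %), in the *Otx2* window (circles, with 95% Wilson intervals as lines and n in the labels) and over all mouse peaks of the list (diamonds). The intervals at H3K27ac and H3K4me1 lie to the right of the diamonds for both factors, and those at H3K4me3 include them.

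Windows of the gene plus 200 kb each side were then counted for all 21938 protein-coding genes, and windows of neighbouring genes can share peaks. The *Otx2* window held 25 Otx2 peaks, beside a median of 8, and 4.36% of genes had at least as many. Its 7 Neurod1 peaks, beside a median of 1, were reached by 4.23% of genes. The share for Otx2 was 0.944% with 100 kb each side and 12.5% with 500 kb, and that for Neurod1 was 1.23% and 8.28%. For H3K4me1, H3K27ac, and H3K4me3 the shares were 17.5%, 25.2%, and 40.8%. They too moved with the window, to 6.59%, 10.1%, and 20.8% with 100 kb each side and to 14.1%, 55.8%, and 53.0% with 500 kb, where H3K4me1 was close to Otx2. By bases covered in place of peaks, with 200 kb each side, the shares were 5.91% for H3K4me1 and 3.72% for Otx2. For strong binding, 17 genes, 0.0775%, had at least 4 Otx2 peaks of 10-fold or more in their window. The 10-fold limit was chosen after the values had been seen, and 4 is the count of *Otx2* itself. *Crx* held 3 such peaks, and *Neurod1* and *Prdm1* held 2 each.

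*Crx*, *Neurod1*, and *Prdm1*, 3 genes of the same precursor programme, were set beside *Otx2*. A lower Otx2 fold at the starts than elsewhere in the window, as at *Otx2*, was also seen at *Neurod1* and *Prdm1* but not at *Crx*, and *Prdm1*, like *Otx2*, had no Neurod1 peak at a start. The *Crx* window held 16 Otx2 peaks and 3 Neurod1 peaks, and its strongest Otx2 peak, of 14.6-fold (rank 178), lay within 1 kb of a *Crx* start. The *Neurod1* window held 15 Otx2 and 9 Neurod1 peaks, with Otx2 of 9.79-fold and Neurod1 of 11.1-fold at the start, and an Otx2 peak of 40.5-fold elsewhere in the window that ranked 2 in the whole list. The *Prdm1* window held 13 Otx2 and 4 Neurod1 peaks, with Otx2 of 5.09-fold at the start and 18.01-fold (rank 72) elsewhere in the window. Of the 4 genes, *Otx2* had the most Otx2 peaks, the lowest Otx2 fold at its starts (4.15-fold), and the highest H3K4me3 (64.9-fold, beside 46.3, 40.9, and 60.4-fold). No test of these orders is possible with pooled lists.

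**Figure D5:**
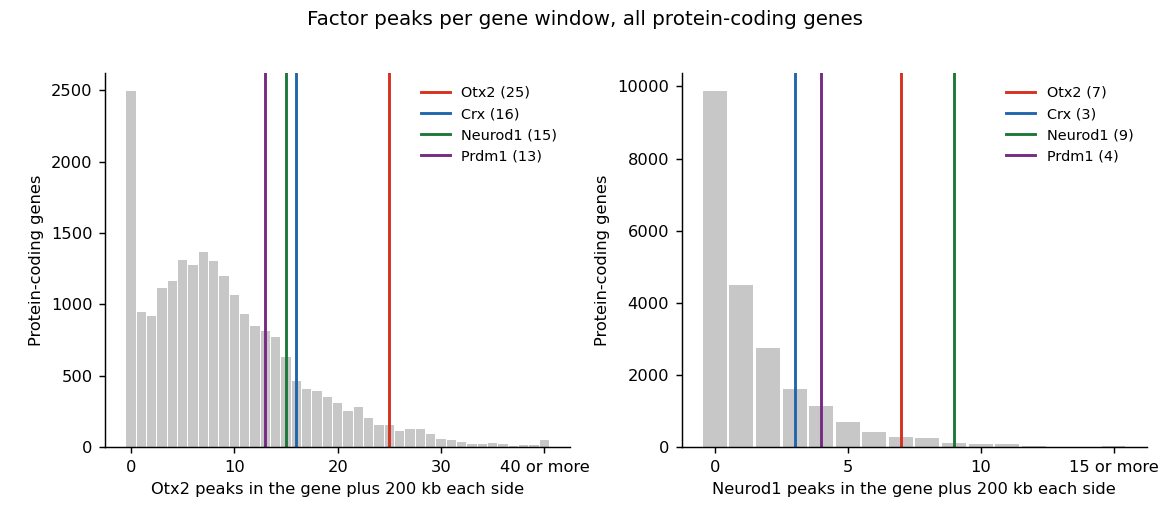
Number of protein-coding genes (y axis) by the number of Otx2 peaks (left) or Neurod1 peaks (right) in the gene plus 200 kb each side (x axis), with the last bar pooling all higher counts and coloured lines marking 4 genes. *Otx2*, at 25 Otx2 and 7 Neurod1 peaks, lies in the upper tail of both distributions.

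Among 24 transcription factor genes of photoreceptor, bipolar, and progenitor cells, 23 had an Otx2 peak within 1 kb of a start, and 23 had H3K4me3 there. Over all protein-coding genes these shares were 51.0% and 56.0%. Of the 23 with H3K4me3, all but 1 also had Otx2, beside 86.4% of all protein-coding genes with H3K4me3 at a start. The median Otx2 fold at the starts of the list was 5.09, and *Otx2* at 4.15-fold was below it, with 17 of the 24 at or above its value. *Neurod4*, a bHLH factor, had the highest, 20.03-fold. Neurod1 was at the starts of 6 of the 24, namely *Crx*, *Nrl*, *Nr2e3*, *Neurod1*, *Bhlhe22*, and *Mef2d*, beside 5.76% of all protein-coding genes. The other genes of the list, *Otx2* among them, had no Neurod1 peak there. In their windows, *Six3* and *Pax6* reached the 25 Otx2 peaks of *Otx2*, but neither held an Otx2 peak of 10-fold. *Rax*, with 24 Otx2 peaks in its window, held 3 of at least 10-fold. In the same list, *Rax*, an eye field gene, had the highest H3K4me3 of the whole genome (159-fold) and *Six3* ranked 6. H3K4me3 was not high over the whole list: *Nr2e3*, at 12.3-fold, ranked 7493 and lay below the median of 13.5-fold for all H3K4me3 peaks.

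Finally, the motifs were set against the genome. TAATCC lay in the 300 bp centred on the summit in 6 of the 25 Otx2 peaks (24%, 11.5 to 43.4%), beside 18.2% of all Otx2 peaks. None of the 4 peaks of at least 10-fold had it there (an upper bound of 49.0%), beside 37.3% of the 754 such peaks. In these 4 peaks the nearest TAATCC lay 155, 172, 186, and 205 bp from the summit, outside that stretch. With 500 bp all 4 peaks held it (51.0 to 100%), beside 59.8% of the 754, and 13 of the 25 did, beside 28.6% of all Otx2 peaks.

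The Neurod1 E-box lay close to some of the summits. CAGATG lay in the 300 bp centred on the summit in 4 of the 7 Neurod1 peaks (57.1%, 25 to 84.2%), beside 52.1% of all. At the upstream site it lay 20 bp from the Neurod1 summit and 30 bp from the Otx2 summit, and at the site 73.8 kb downstream 31 and 35 bp. The strongest Neurod1 peak of the window, 16.9-fold, had none in its 300 bp, and the nearest lay 187 bp from its summit. At the site 87.1 kb downstream TAATCC and the nearest CAGATG began 14 bp apart, in the stretch shown above, and at the sites 73.8 and 58.6 kb downstream 29 and 43 bp apart. At the upstream site the nearest pair was 175 bp apart. The absence of these letters from a stretch says nothing about the factor, since each binds other sequences too.

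The peaks were not spread evenly. The longest stretches with no peak of any list were 53.8 kb at the downstream end of the window, 31.7 kb between 10.1 and 41.8 kb upstream, 28.0 kb between 94.1 and 122.0 kb upstream, 21.6 kb between 102.5 and 124.0 kb downstream, and 20.9 kb between 16.3 and 37.2 kb downstream.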

How the data were processed

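CUT&RUN reads of P2 mouse retina were trimmed by the authors with cutadapt 3.5 and Trim Galore 0.6.4, aligned to GRCm38 with Bowtie2, filtered with SAMtools 1.12 and deduplicated with UMI-tools ignoring molecular identifiers. Technical replicates were merged, and macs2 called 1 joint peak set per target with IgG as control, with mitochondrial and ENCODE blacklisted regions removed. The fold enrichment is a ratio that the authors deposited, the pooled signal at the summit over that of IgG. The −log10 q-value is that of the authors' caller, with a q threshold of 0.05. Neither was rescaled. Read totals are not in the lists, so depth is unknown. H3K27me3 and H3K9me3 were not analysed here.

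Scripts ran under Python 3.11.15 (pandas 2.3.3, numpy 2.4.6, pysam 0.24.0, scipy 1.17.1, matplotlib 3.10.9). Peaks sharing at least 1 bp were counted as overlapping, and the code was checked against bedtools on 32000 simulated intervals, with 0 differences. The annotation was GENCODE M21, and sequences came from the GRCm38.p6 genome and RefSeq promoters. A gene had a peak at its start when the peak lay within 1 kb of an annotated start, and the promoter class was set by overlap with H3K4me3 alone. Motifs were TAATCC for Otx2 and CAGATG for Neurod1, on both strands, in 300 bp centred on the summit. Since 1 pooled value exists per peak, no test was made, and shares have 95% Wilson intervals for counting error.

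The genes named are *Otx2*, genes in the window with H3K4me3 at a start, *Crx*, *Neurod1*, *Prdm1* and a list of 24 transcription factor genes, and the neighbours *Tmem260* and *Exoc5* were added after their values were seen. The peaks named are all H3K4me3, Otx2 and Neurod1 peaks of the window, the H3K27ac and H3K4me1 peaks that overlap these, and the 5 of highest fold in each list, and 5 further H3K27ac peaks beside these were added after their values were seen. The locus, lists and motifs were chosen with earlier results of these data known. The alternatives were limits on the q-value and the fold, other window sizes, merging of peaks, stricter overlaps, other distances to a start, bases covered and other motif lengths. The values of 1 gene of the transcription factor list are not reported here, and the gene is included in the counts of that list.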

Additional observations from a re-analysis of the deposited data

How the results depend on the processing

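Of 181 values recomputed under the alternatives, 141 stayed within 1.5 times the count, or within the interval of the share, and 40 moved. No paired analysis was possible because each list pools all libraries of its target and no result comes from a test, and for the same reason no replicate could be left out. Limiting every list to −log10 q values of 5 or more left 2 H3K4me3, 8 H3K27ac and 16 Otx2 peaks in the window. The Otx2 peaks then numbered 2 in the promoter, 3 in the active enhancer, 11 as before in the poised enhancer class and 0 outside histone peaks. Neurod1 peaks numbered 2 in the active and 5 in the poised enhancer class. The shares of genes with at least as many peaks became 76.2% for H3K4me3 and 2.04% for Neurod1. With a fold of at least 2.5, 4 Otx2 peaks were in the promoter class and the share of genes for Otx2 was 7.39%. With 100 kb each side, 7 Otx2 peaks were in the poised class, and the shares of genes were 20.8% for H3K4me3, 10.1% for H3K27ac, 6.59% for H3K4me1, 0.944% for Otx2 and 1.23% for Neurod1. With 500 kb each side, there were 100 H3K4me1 and 38 Otx2 peaks, 19 Otx2 peaks in the poised class and 3 outside histone peaks, 1 Neurod1 peak in the promoter and 5 in the poised class, and shares of 55.8% for H3K27ac, 12.5% for Otx2 and 8.28% for Neurod1. With peaks within 500 bp merged, H3K4me3 peaks numbered 3, and the shares were 68.2% for H3K4me3, 32% for H3K4me1 and 8.84% for Otx2. An overlap of at least 50% of the shorter peak, or the summit inside the histone peak, each left 2 Otx2 peaks outside histone peaks. By bases covered, the shares were 24.4% for H3K4me3, 5.91% for H3K4me1 and 2.4% for Neurod1. TAATCC lay near the summit of 1 Otx2 peak in 100 bp and of 13 in 500 bp. Counting a histone peak within 500 bp of the factor peak was chosen after seeing the data and moved no class count by over 1.5 times. The causes were not tested.

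The lists give no replicate values, so the error of a single fold is unknown. A missing peak means that none passed the threshold, not that the mark or factor was absent. Both Otx2 antibodies were pooled into 1 list, and peaks of one antibody alone cannot be told apart there.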
